A study of Mus musculus with 2 samples.

Results

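Myosin heavy chains are the motor subunits that walk along or pull on actin filaments, and *Myo5a*, *Myo1d*, *Myo1e*, *Myo1f*, *Myo6*, *Myo7a*, *Myo9a*, *Myo9b*, *Myo10* and *Myh9* were followed here in myeloid cells of arthritic mouse joints. The genes were taken by symbol, all 10 were found, and they are 10 of the 32524 genes in the files. The study asked whether an earlier contact after β-glucan, a fungal cell wall polysaccharide used to train innate immune cells, alters myeloid cells in a later arthritis. C57BL/6 wild-type mice that were 7 to 10 weeks old at the start received 1 mg of β-glucan or PBS into the peritoneum, arthritis was induced 7 days later, and CD45+CD11b+ cells were sorted from the synovium at day 17. Each group is 1 single-cell RNA library made from 4 pooled mice, and no label ties a cell to a mouse. Mice of both groups carried arthritis, so neither library shows the resting joint. The methods name serum transfer from K/BxN mice as the arthritis model, whereas the sample labels describe anti-collagen antibodies (Arthrogen) with LPS.

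After removal of barcodes with fewer than 500 genes or more than 10% mitochondrial UMIs (counted molecules), 5696 of 7196 barcodes remained after β-glucan and 4553 of 5760 after PBS. The files held 81611849 and 73874602 UMIs, 7 barcodes occurred in both libraries, and 2 of these did so among the kept cells. The cells were grouped again into 20 clusters without the myosins among the genes used. Macrophage-like clusters were 0 (led by *Ednrb*, *Cd163* and *C4b*), 1 (*Cav1*, *Spp1*), 2 (*Vsig4*, *S100b*), 4 (*Gpnmb*, *Apoe*), 5 (*Olr1*, *Spp1*, *Rgs1*) and 10 (*Fxyd2*, *Aqp1*). Clusters 7 (*Ccl17*, *Cd209a*), 11 (*Retnla*, *Dcstamp*) and 17 (*Clec9a*, *Xcr1*) carried markers of antigen-presenting cells and are called APC-like. Clusters 3 (*H2-Aa*, *Cd74*, *Ccr2*) and 9 stayed unnamed. Cluster 9 did so because *Plac8*, *Chil3*, *Ngp*, *Ly6c2* and *Ltf* led it when genes were ranked whatever share of cells detected them. The genes given for the other clusters come from a ranking limited to more widely detected genes, in which *Ldlrad3*, *Taco1* and *Plxna4* led cluster 9. Without that limit, the skeletal muscle genes *Tnnc2*, *Acta1*, *Mylpf* and *Myl1* led cluster 1, which kept the name macrophage-like. These 11 clusters together form the compartment, with 4596 cells and 65047331 UMIs in the β-glucan library and 3669 cells and 60363471 UMIs in the PBS library. Levels below are UMIs of the gene scaled to an equal summed depth of the same cells (CPM, the usual unit of library-scaled counts). A log2 ratio is β-glucan over PBS, with a 95% interval that covers counting error only. With 1 library per group there is no replicate spread and no test, so the intervals compare 2 libraries and not the treatments.

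All these motors split ATP to move on actin, and their tails decide what they carry or anchor. Class V and class VI myosins move vesicles in opposite directions along the filament, class I myosins tie membranes to the actin cortex, class VII and class X myosins work in membrane protrusions, and class II myosin forms the contractile filaments. In macrophages and osteoclasts such motors serve phagocytosis, adhesion rings, migration and the delivery of vesicles to the cell edge.

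In the compartment, *Myo5a*, *Myo10* and *Myo1f* were the myosins that differed most between the libraries, all higher after β-glucan. Of the 10 genes, 3 had a log2 ratio of at least 0.25 and none had one of −0.25 or lower. Over the 9810 genes measured at 5 CPM or more, 7.58% reached 0.25 and 4.85% lay at or below −0.25. Ratios above 0 were seen for 7 of the 10, beside 57.7% of all measured genes and 81.9% of those that span at least 100 kb. The median of the 10 was 0.18, beside a median of 0.03 over all measured genes. The study had already reported *Myo5a*, *Myo1e*, *Myo1f*, *Myo9a*, *Myo9b* and *Myo10* among upregulated genes of the main myeloid cells in these libraries. The counts and medians set beside all genes, here and below, are therefore descriptions and not independent of these data. *Myo6*, at under 5 CPM, was the only one of the 10 not to pass that filter, which leaves 9 measured. Noncoding genes annotated on the same strand overlap *Myo1e* (1), *Myo1d* (2), *Myo10* (2) and *Myh9* (2), and reads there could be split between the genes.

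**Figure D1:**
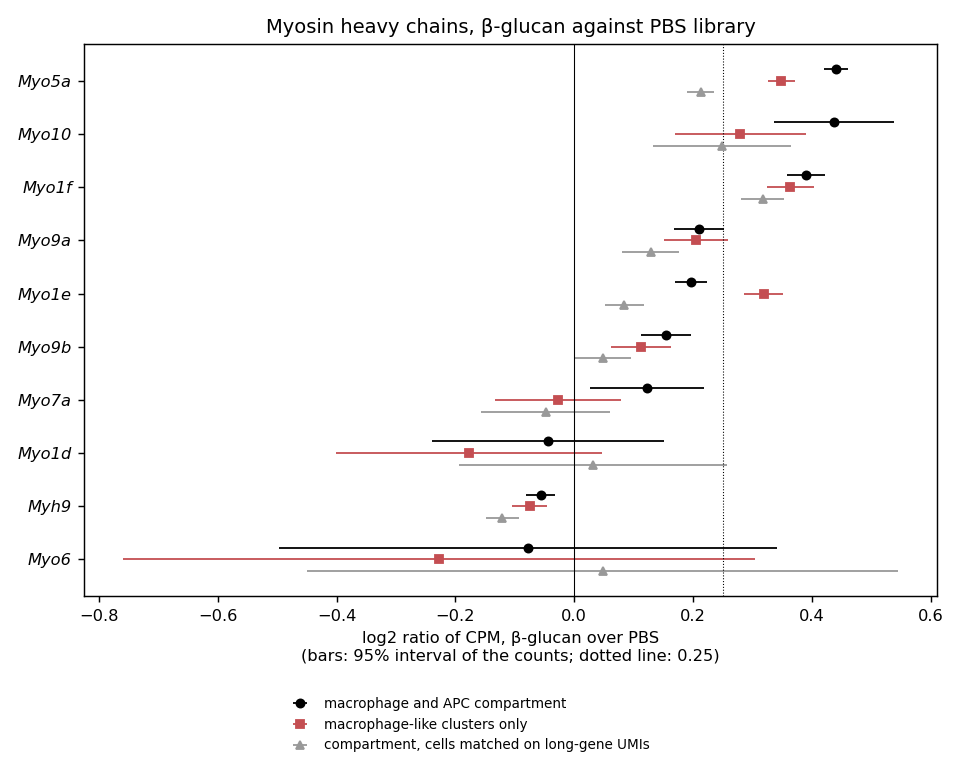
Log2 ratio of CPM, β-glucan over PBS, for each myosin heavy chain (x axis) in the whole compartment, in macrophage-like clusters alone and in cells paired for equal long-gene content; bars are 95% intervals of the counts and the dotted line marks 0.25. *Myo5a*, *Myo10* and *Myo1f* lie to the right of the line in the whole compartment, and *Myo1f* is the one that stays there in matched cells.

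The class V motor *Myo5a* carries melanosomes, secretory vesicles and endoplasmic reticulum along actin. It lies on chromosome 9, 74978297 to 75130970, plus strand (GRCm39), a span of 152.7 kb of which 9.88% is exon. It gave 49869 UMIs after β-glucan and 34092 after PBS in the compartment, which is 767 CPM (interval 760 to 773) and 565 CPM (559 to 571). The log2 ratio was 0.44 (0.42 to 0.46), a 1.36-fold higher level after β-glucan. By the mean of both libraries, the label of macrophage myosins held for *Myo5a* and *Myo7a*, whose 8 highest cluster levels were all in the compartment. By the same mean, *Myo1d*, *Myo6*, *Myo10*, *Myo1f* and *Myh9* had their highest cluster level outside it. After β-glucan alone, *Myo5a* in neutrophil-like cluster 8 (632 CPM) was above compartment clusters 10 (594 CPM) and 1 (581 CPM). *Myo7a* in proliferating-like cluster 16 (22.3 CPM) was then above cluster 1 (20.4 CPM). Among the measured genes, 98.7% had a lower log2 ratio than *Myo5a*. The difference was smaller in the macrophage-like clusters alone, where *Myo5a* was at 831 CPM after β-glucan and 653 CPM after PBS, a log2 ratio of 0.35 (0.33 to 0.37). In APC-like cells the levels were 317 and 291 CPM and the log2 ratio was 0.12 (0.05 to 0.20).

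Seen cell by cell, *Myo5a* was detected nearly throughout the compartment. When every cell was thinned to 4000 UMIs, 89.2% of cells after β-glucan (3873 of 4344; exact binomial interval 88.2 to 90.1) and 81.5% after PBS (2812 of 3452; 80.1 to 82.7) kept a *Myo5a* UMI. The thinning left out 252 and 217 shallower cells. Unthinned, the shares were 96.9% and 95.4%, at medians of 13034 and 15463 UMIs per cell. Outside the compartment, the thinned shares were 28.9% and 7.27% in NK/cytotoxic-like cells, 36.4% and 27.5% in T cell-like cells and 34.1% and 44.7% in stromal-like cells, with median depths between 7409 and 20169 UMIs. They were higher in B cell-like cells, at 60.2% and 50.5% (medians of 5542 and 5958 UMIs), close to the 64.4% and 59.8% of APC-like cells. In proliferating-like cells they were 80.0% and 71.8%, so detection was not confined to the compartment. Those proliferating-like cells had markers of antigen-presenting cells at 18015 CPM after β-glucan and 24796 after PBS, beside 21117 and 25004 in APC-like cluster 11. Their shares therefore do not show detection outside myeloid cells.

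Across clusters, *Myo5a* had its highest levels, by the mean of both libraries, in macrophage-like and unnamed clusters of the compartment. It was highest in cluster 0, at 1175 CPM after β-glucan and 936 after PBS, and next in clusters 4 (1021 and 804 CPM) and 9 (973 and 708 CPM). Clusters 2, 3, 5, 10 and 1 came after these, from 780 down to 581 CPM after β-glucan and from 624 down to 470 after PBS. The order covers the 17 clusters with 50 or more cells in each library. By the mean of both libraries, all 8 places at its top were macrophage-like or unnamed clusters of the compartment. Unnamed cluster 9 stood above macrophage-like clusters 2, 5, 10 and 1. After β-glucan alone, neutrophil-like cluster 8 (632 CPM) was above clusters 10 (594 CPM) and 1 (581 CPM). APC-like clusters 7 (310 and 316 CPM) and 11 (350 and 258 CPM) lay below B cell-like cluster 6 (434 and 266 CPM) by the mean of both libraries, though cluster 7 was above it in the PBS library, and the stromal-like cluster 13 was lowest, at 147 and 128 CPM. For all 16 pairs of neighbours in this order the ranges over the 2 libraries overlapped. Within each library taken alone, clusters 0, 4, 9, 2, 3, 5, 10 and 1 kept this order among themselves. The mean of both libraries in the highest cluster was 1055 CPM, and the highest cluster, again led by *Ednrb*, gave 1059 CPM at a clustering resolution of 0.5 and 1151 CPM at 1, with the stromal-like cluster lowest in both.

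Within clusters, *Myo5a* was higher after β-glucan in 9 of the 10 compartment clusters that have at least 100 cells per library, and all 9 intervals lay above 0. The log2 ratio ran from 0.24 (0.13 to 0.35) in cluster 10 to 0.46 (0.34 to 0.58) in cluster 9. Cluster 7 was the exception, with a log2 ratio of −0.03 (−0.13 to 0.07). Cluster 9 was shallow, at medians of 5364 and 5752 UMIs per cell, and its summed neutrophil markers were at 142 CPM after β-glucan and 4438 CPM after PBS. Their part in the cluster 9 value was not tested, and without cluster 9 the compartment gave *Myo5a* the same log2 ratio of 0.44.

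In neutrophil-like, lymphoid and basophil/mast-like cells the difference in *Myo5a* was larger than in the compartment. Macrophage markers differed in the same direction, apart from the small basophil/mast-like cluster 19. *Myo5a* was at 632 CPM after β-glucan and 298 after PBS in neutrophil-like cells, 289 and 143 in T cell-like cells, 288 and 101 in NK/cytotoxic-like cells and 434 and 266 in B cell-like cells. The summed level of 9 macrophage markers in these clusters was 7309 and 4196, 2551 and 1827, 3191 and 1582, and 3039 and 1577 CPM in the same order. Basophil/mast-like cluster 14 had *Myo5a* at 375 CPM after β-glucan and 199 after PBS, with macrophage markers at 3061 and 966 CPM. Cluster 19, with 3 and 12 cells, had these markers at 253 and 2492 CPM. Proliferating-like cells had a smaller difference, at 433 and 338 CPM (0.36, 0.20 to 0.51), with macrophage markers at 5323 and 3951 CPM. In stromal-like cells the macrophage markers were at 690 and 804 CPM, and *Myo5a* at 147 and 128 CPM had an interval that spanned 0 (−0.05 to 0.43). The part of macrophage RNA in these values was not tested. The neutrophil-like cells also split at the higher resolution into cells with a median of 4309 UMIs, where *Myo5a* was at 225 and 147 CPM, and cells with a median of 18518 UMIs, where it was at 703 and 412 CPM. Of the deeper cells, 31.9% were among those with the highest doublet scores, against 1.65% of the shallower ones. With all cells of highest doublet score left out, neutrophil-like *Myo5a* was at 619 and 154 CPM, a larger difference (log2 interval 1.73 to 2.29).

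**Figure D2:**
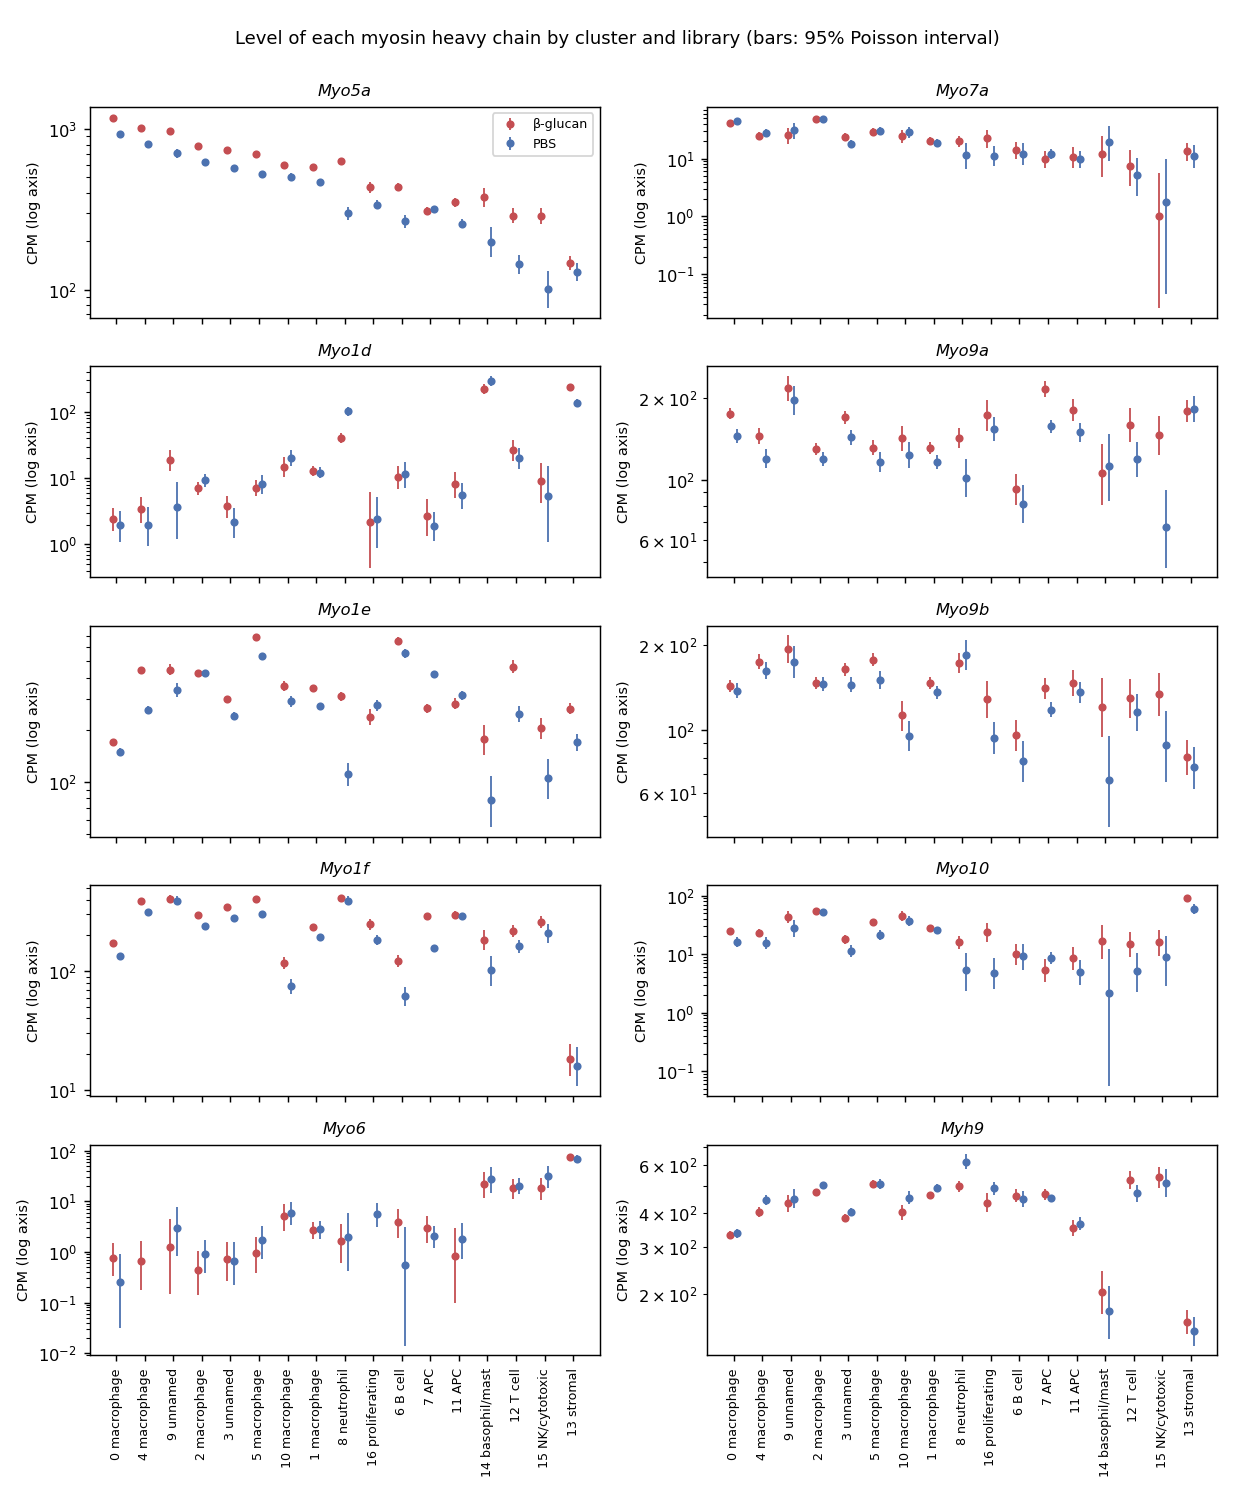
Level of each myosin heavy chain (CPM, log axis) in the 17 clusters in which both libraries have 50 or more cells, ordered by the level of *Myo5a*; red points are the β-glucan library, blue points the PBS library, bars are 95% Poisson intervals, and libraries with 0 UMIs have no point. *Myo5a* falls from 1175 and 936 CPM in cluster 0 to 147 and 128 CPM in stromal-like cluster 13, whereas *Myo6* and *Myo10* are highest of the plotted clusters in cluster 13.

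Among 7206 other genes at 20 CPM or more on average, the cluster profiles closest to that of *Myo5a* over the 17 clusters were those of *Nhlrc3* (Pearson r = 0.97), *Ly96* (0.97), which encodes the MD-2 partner of TLR4, *Tfec* (0.96), a MiT/TFE factor of macrophages, *Lgmn* (0.96), a lysosomal protease, and *Stard8* (0.95). These are descriptions over clusters that share their libraries and differ in depth. *Myo7a* was the member whose profile came nearest to *Myo5a* (0.80), and *Myo1f* with *Myo9b* was the closest pair of members (0.86). *Myo5a* with *Myo6* was the least alike pair (−0.84).

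The class I motors tether membranes to cortical actin, and *Myo1e* and *Myo1f* serve phagocytic cups and leukocyte adhesion. *Myo1f* (chromosome 17, 33774681 to 33826769, plus strand; span 52.1 kb) was at 292 CPM after β-glucan and 223 after PBS in the compartment, from 19013 and 13466 UMIs. Its log2 ratio was 0.39 (0.36 to 0.42), and 97.9% of measured genes had a lower one. *Myo1f* was higher after β-glucan in all 10 compartment clusters, and 8 intervals lay above 0. The spread reached from 0.04 in cluster 11 (297 and 290 CPM) to 0.91 (0.79 to 1.02) in cluster 7, where it was at 294 and 157 CPM. In macrophage-like cells it was at 275 and 214 CPM (0.36) and in APC-like cells at 314 and 201 CPM (0.65; 0.57 to 0.73). Stromal-like cells held the least *Myo1f*, 18.1 CPM after β-glucan and slightly less after PBS, and its highest levels were in neutrophil-like cluster 8 (416 and 393 CPM) and cluster 9 (408 and 393 CPM).

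*Myo1e* (chromosome 9, 70114632 to 70307048, plus strand, span 192.4 kb) went in opposite directions in macrophage-like cells and in the clusters named APC-like. By the mean of both libraries, its level was highest in macrophage-like cluster 5 (684 CPM after β-glucan and 534 after PBS) and B cell-like cluster 6 (656 and 554 CPM). T cell-like cells had 463 and 246 CPM. Over the whole compartment *Myo1e* was at 366 CPM after β-glucan and 319 after PBS, a log2 ratio of 0.20 (0.17 to 0.22). In macrophage-like cells it was at 392 and 315 CPM, a log2 ratio of 0.32 (0.29 to 0.35), with its largest difference in cluster 4 (441 and 260 CPM; 0.76, 0.67 to 0.86). Cluster 2, led by *Vsig4*, showed no such difference, at 428 and 423 CPM (0.01, −0.05 to 0.08). In APC-like cells *Myo1e* was lower after β-glucan, at 251 against 376 CPM, a log2 ratio of −0.58 (−0.66 to −0.50). Cluster 7 carried most of this, at 265 and 423 CPM (−0.67), and cluster 11 had 282 and 316 CPM (−0.16). Unnamed cluster 3 also carried markers of antigen-presenting cells, summed to 21928 CPM after β-glucan and 24031 after PBS. There *Myo1e* was higher after β-glucan, at 300 and 241 CPM, so the lower level was not shared by all clusters with these markers.

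Cells from the PBS library alone weighed on *Myo1e* in cluster 7. At resolution 1, 80 cells led by *Arg1* and *Slc7a2* formed a cluster of their own that held no cell of the β-glucan library. The naming rule called that cluster macrophage-like and not APC-like, so the APC-like value of *Myo1e* includes cells of both names. *Myo1e* was at 734 CPM in these 80 cells, *Myo5a* at 438 CPM, *Myo10* at 18.5 CPM and *Myo1f* at 108 CPM. Without those of them that lay in cluster 7, the cluster held 194 and 290 cells in place of 194 and 367, and the log2 ratio of *Myo1e* there was −0.29 (−0.40 to −0.19), that of *Myo5a* 0.14 (0.03 to 0.24) and that of *Myo1f* 0.78 (0.66 to 0.90). Cells that are fewer in 1 library and cells that differ in RNA cannot be told apart from these sums when a cluster holds several cell states.

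*Myo1d* (chromosome 11, 80372952 to 80670883, minus strand; span 297.9 kb) was near the lower limit in the compartment, with 441 and 422 UMIs, 6.78 and 6.99 CPM, and its log2 ratio was −0.04 (−0.24 to 0.15). The gene was chiefly one of other cells in the sort. Basophil/mast-like cluster 14 had 222 CPM after β-glucan and 296 after PBS, stromal-like cluster 13 had 237 and 138 CPM, and neutrophil-like cluster 8 had 40.6 and 103 CPM. The small endothelial-like cluster, with 23 and 13 cells, held more, at 640 and 469 CPM from 222 and 70 UMIs. In cluster 9 the values were 31 and 5 UMIs (19.1 and 3.74 CPM), and the interval of that log2 ratio (0.98 to 4.07) was the only one above 0 among compartment clusters for this gene.

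*Myo6*, which encodes the one motor that walks towards the minus end of actin and serves endocytosis and autophagosome delivery, was nearly absent from macrophages. It lies on chromosome 9, 80072282 to 80219011 (plus strand; span 146.7 kb) and gave 99 and 97 UMIs in the compartment, which is 1.52 CPM (1.24 to 1.85) after β-glucan and 1.61 (1.30 to 1.96) after PBS. Its log2 ratio of −0.08 had an interval from −0.50 to 0.34, so a difference within that range was not detectable at this depth. In cluster 4 the PBS library had 0 *Myo6* UMIs and the β-glucan library 4, and no ratio was formed. Stromal-like cells held 74.9 and 69.5 CPM, the highest level of the 17 clusters, and the small endothelial-like cluster held 133 and 134 CPM.

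*Myo7a*, the motor of hair cell stereocilia that also moves phagosomes and melanosomes in pigment epithelium, is on chromosome 7, 97699069 to 97768734 (minus strand; span 69.7 kb). It was at 29.4 CPM after β-glucan and 27.0 after PBS in the compartment, a log2 ratio of 0.12 (0.03 to 0.22). The direction was not the same inside the clusters, since 7 of the 10 were lower after β-glucan, and in macrophage-like cells the levels were 33.5 and 34.1 CPM (−0.03, −0.13 to 0.08). Cluster 3 alone had an interval above 0, at 23.6 and 17.8 CPM (0.40, 0.08 to 0.73). Its levels were highest in clusters 2 (47.6 and 48.2 CPM) and 0 (41.6 and 45.1 CPM), the macrophage-like clusters led by *Vsig4* and by *Ednrb*. APC-like clusters 7 and 11 held 9.76 and 11.9 CPM and 10.6 and 9.76 CPM, in that order of clusters.

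The class IX motors *Myo9a* (chromosome 9, 59658133 to 59836149, plus strand; span 178.0 kb) and *Myo9b* (chromosome 8, 71725335 to 71816726, plus strand; span 91.4 kb) showed small differences with 1 sign. *Myo9a* was at 157 CPM after β-glucan and 136 after PBS (0.21, 0.17 to 0.25) and *Myo9b* at 154 and 138 CPM (0.15, 0.11 to 0.20). Both were higher after β-glucan in all 10 compartment clusters, with 8 intervals above 0 for *Myo9a* and 3 for *Myo9b*. The largest log2 ratio of *Myo9a* was in cluster 7, 0.46 (0.33 to 0.58), at 216 and 157 CPM. *Myo9a* and *Myo9b* had fairly even levels over cell types, from 92.5 to 217 CPM and from 80.5 to 193 CPM after β-glucan over the 17 clusters. In both orders the ranges over the 2 libraries overlapped for all neighbours.

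*Myo10*, a motor that carries integrins to the tips of filopodia, is on chromosome 15, 25622611 to 25813759 (plus strand; span 191.1 kb). It was at 29.9 CPM after β-glucan and 22.1 after PBS, from 1946 and 1334 UMIs, and the log2 ratio was 0.44 (0.34 to 0.54). Higher values were seen in 9 of the 10 compartment clusters, with 5 intervals above 0, and the macrophage-like cells as a whole had 35.1 and 28.9 CPM (0.28, 0.17 to 0.39). The exception was cluster 7, with 22 and 77 UMIs (5.37 and 8.72 CPM). Without the *Arg1* cells named above, cluster 7 gave 5.37 and 5.61 CPM. Among the 17 clusters with 50 or more cells per library, *Myo10* was highest in stromal-like cells (90.6 and 59.0 CPM), then in cluster 2 (55.4 and 52.0 CPM). The endothelial-like cluster, with 23 and 13 cells, held more, at 548 and 322 CPM from 190 and 48 UMIs.

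*Myh9*, the heavy chain of nonmuscle myosin IIA and the contractile motor of leukocytes, went the other way by a small amount. It is on chromosome 15, 77644785 to 77726381 (minus strand; span 81.6 kb) and was at 427 CPM after β-glucan and 444 after PBS, a log2 ratio of −0.06 (−0.08 to −0.03). *Myh9* was lower after β-glucan in 9 of the 10 compartment clusters, and 5 intervals lay below 0. Its lowest value was −0.18 in cluster 10, at 401 and 455 CPM. *Myh9* was also lower in neutrophil-like cells (500 and 617 CPM; −0.30, −0.42 to −0.19), where the neutrophil markers themselves were at 17925 and 34109 CPM. In T cell-like cells it was at 529 and 472 CPM (0.16, 0.01 to 0.32).

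**Figure D3:**
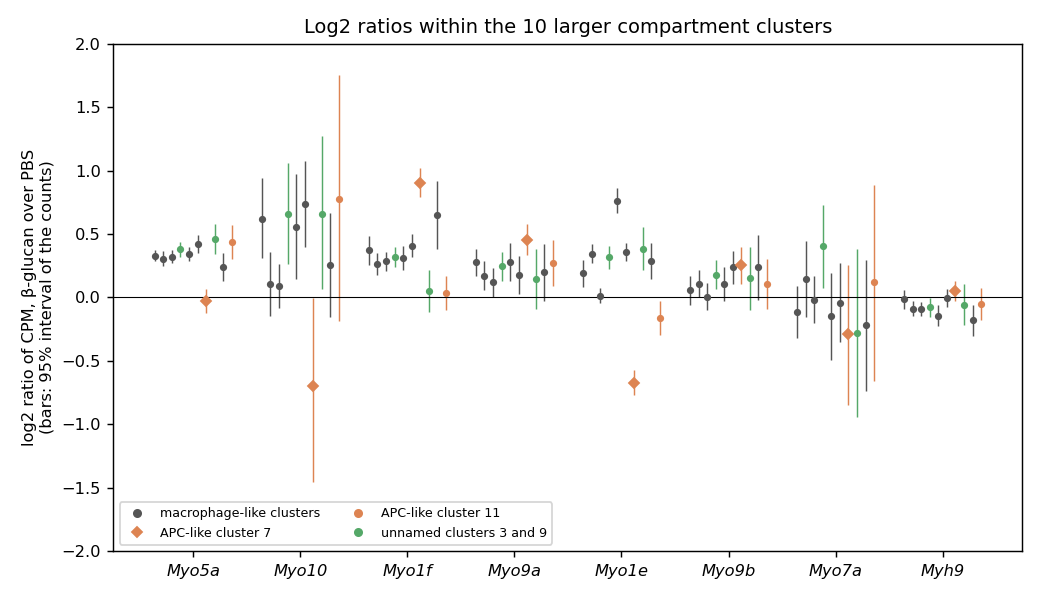
Log2 ratio of CPM, β-glucan over PBS (y axis), of 8 myosin heavy chains in the 10 compartment clusters with at least 100 cells per library; each point is a cluster, in order of cluster number, bars are 95% intervals of the counts, and *Myo1d* and *Myo6* are left out for their low counts. Points of *Myo5a* lie between 0.24 and 0.46 apart from cluster 7 at −0.03, those of *Myo1e* reach from −0.67 in cluster 7 to 0.76 in cluster 4, and 9 of 10 points of *Myh9* lie below 0.

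In macrophage-like cells taken alone, 4 of the 10 myosins (*Myo5a*, *Myo1f*, *Myo1e* and *Myo10*) reached 0.25, none reached −0.25, and the shares over the 9708 genes measured there were 6.01% and 3.28%. In APC-like cells 3 reached 0.25 (*Myo1f*, *Myo9a* and *Myo6*) and 3 lay at or below −0.25 (*Myo1d*, *Myo1e* and *Myo10*), with 17.3% and 13.6% of 9754 genes in those ranges. The counts of *Myo6*, *Myo1d* and *Myo10* in APC-like cells were small, and the intervals of *Myo1d* and *Myo10* spanned 0.

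Long genes as a class were higher in the β-glucan library, and most of these myosins are long genes. UMIs of genes that span 100 kb or more made up 19.5% of the compartment's UMIs after β-glucan and 17.7% after PBS. Among 1372 measured genes of that span, 22.7% reached a log2 ratio of 0.25 and 3.21% lay at or below −0.25, with a median of 0.14. Of the 6 myosins with such a span, 2 reached 0.25 (*Myo5a* and *Myo10*), and of the 4 shorter ones 1 did (*Myo1f*). *Myo5a* was above 94.9% of the long genes and *Myo10* above 94.5%, while *Myo9a* was above 67.4% and *Myo1e* above 64.7%. Over the 1671 genes of 50 to 100 kb, the class of *Myo1f*, *Myo7a*, *Myo9b* and *Myh9*, the median was 0.08 and 9.34% reached 0.25. Whether reads from introns were counted is not given in the sources used here, so nuclear RNA and spliced RNA of these genes cannot be told apart. *Malat1*, a nuclear RNA, was at 19082 and 16873 CPM and *Neat1* at 770 and 875 CPM.

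**Figure D4:**
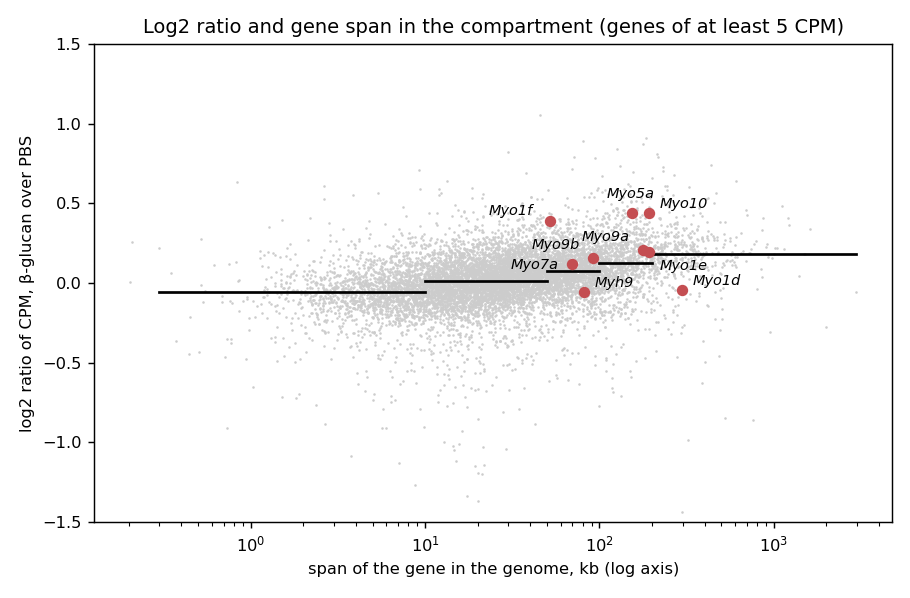
Log2 ratio of CPM in the compartment, β-glucan over PBS (y axis), against the genomic span of the gene in kb (log axis) for genes of at least 5 CPM; grey points are genes, black lines the medians of 5 span classes, red points the 9 measured myosins, and 18 genes lie beyond the y axis. The medians climb from −0.06 under 10 kb to 0.18 at 200 kb or more, and *Myo5a*, *Myo10* and *Myo1f* lie above the median of their class.

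When equal numbers of cells of each library were drawn within every cluster from bins of equal long-gene share (3165 cells per library, long-gene shares of 18.5% and 18.3%), the median of all genes became 0.00 and that of the 10 myosins 0.07. *Myo1f* kept most of its difference, at 285 and 229 CPM (log2 ratio 0.32, 0.28 to 0.35). *Myo10* was at 27.1 and 22.8 CPM (0.25, 0.13 to 0.37), just under the limit. *Myo5a* was at 704 and 608 CPM and its log2 ratio was 0.21 (0.19 to 0.24), against 0.44 without the matching. *Myo9a* had 0.13, *Myo1e* 0.08, *Myo9b* 0.05, *Myo7a* −0.05 and *Myh9* −0.12 (−0.15 to −0.09). The matched share was computed without the 10 myosins, and *Myo1f* was then the only one of them at or above 0.25, beside 3.40% of all genes. The matching also equalises the cluster sizes of both libraries, and its 2 effects were not separated.

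Other motors and the proteins that work with the myosins are given here by list, with counts that lie near the background and no test between lists. Of 28 other myosin heavy chain genes in the files, 3 were measured at 5 CPM or more: *Myo1g* (85.7 CPM after β-glucan and 98.5 after PBS; −0.20, −0.25 to −0.15), *Myo1c* (−0.03) and *Myo18a* (0.15). Of 11 measured light chains and regulators, 0 reached 0.25 and 1 lay below −0.25, the regulatory light chain *Myl12b* at 66.5 and 84.0 CPM (−0.34, −0.40 to −0.28), while the kinase gene *Rock2* was highest at 0.16. Partners of myosin V had 0 of 7 at 0.25, from *Rilpl2* (−0.16) to the actin nucleator *Spire1* (0.21). *Rab27a*, *Mlph* and *Myrip*, which link myosin Va to melanosomes and granules, were under 5 CPM. Partners of myosin VI had 7 of 8 above 0, beside 57.7% of all measured genes. Of these partners 1 of 8 reached 0.25, the endocytic adaptor *Dab2* (1183 and 982 CPM, log2 ratio 0.27, 0.25 to 0.28), and *Gipc1* was lowest at −0.22. Among 5 tropomyosin and tropomodulin genes none reached 0.25, and values ran from −0.19 (*Tpm4*) to 0.14 (*Tmod1*). Branched actin assembly had 0 of 18, from *Arpc4* (−0.25) to *Cyfip1* (0.18), and podosome and adhesion genes had 0 of 14, from the focal adhesion protein gene *Vcl* (−0.24) to the podosome scaffold *Sh3pxd2a* (0.16). List medians lay between −0.04 and 0.09 for these 7 lists. Counts at 0.25 stand beside 7.58% of all measured genes, and that at or below −0.25 beside 4.85%. Median spans of the measured genes ran from 17.8 to 53.9 kb over these lists. The named genes *Dab2* (140.9 kb), *Spire1* (125.8 kb) and *Sh3pxd2a* (204.3 kb) are long, and *Gipc1* (15.4 kb), *Rilpl2* (15.3 kb) and *Arpc4* (12.4 kb) are short. *Vcl*, lowest of its list, spans 104.3 kb. The part of gene span in these values was not tested.

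Of the MiT/TFE factors, basic helix-loop-helix proteins that bind E-box letters and drive lysosomal, pigment and osteoclast genes, *Mitf* had a log2 ratio of 0.81 (0.79 to 0.84), *Tfec* 0.33, *Tfeb* 0.28 and *Tfe3* 0.19 in the compartment. *Mitf* is itself a long gene (214.4 kb), and in cells matched for long-gene content its log2 ratio was 0.57 (0.54 to 0.59). It was 0.75 in macrophage-like clusters alone and 0.37 in APC-like clusters alone. Over the 17 clusters the profile of *Mitf* correlated with that of *Myo5a* at r = 0.61, which was rank 1047 of 7206 genes, and over the 10 larger clusters of the compartment at r = 0.82. The promoters of the myosins were read for these letters, CACGTG and CATGTG on both strands, in the 250 bases before each RefSeq start site (GRCm38.p6). For 9 of the 10 myosins 11 such windows were given, and *Myo1d* had none. The letters were found in 1 of the 11 windows, beside 17.6% of all 32851 windows (6.02% for CACGTG and 12.3% for CATGTG). The windows of the 3 myosins above 0.25 are shown first because none of them holds either word, and that of *Myo7a* because it is the one that does, with CATGTG written on the other strand as the capitals.
Myo5a, chr9:75070956-75071205, plus strand: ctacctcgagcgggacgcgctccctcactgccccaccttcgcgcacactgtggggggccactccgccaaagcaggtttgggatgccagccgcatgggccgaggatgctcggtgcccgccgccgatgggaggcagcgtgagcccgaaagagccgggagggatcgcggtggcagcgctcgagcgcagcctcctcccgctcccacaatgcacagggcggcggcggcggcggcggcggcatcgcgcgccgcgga
Myo1f, chr17:33555457-33555706, plus strand: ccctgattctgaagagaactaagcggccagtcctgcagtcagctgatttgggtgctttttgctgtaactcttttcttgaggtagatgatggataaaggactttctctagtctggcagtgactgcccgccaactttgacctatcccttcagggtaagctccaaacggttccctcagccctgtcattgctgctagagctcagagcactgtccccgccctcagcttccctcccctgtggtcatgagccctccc
Myo10, chr15:25622300-25622549, plus strand: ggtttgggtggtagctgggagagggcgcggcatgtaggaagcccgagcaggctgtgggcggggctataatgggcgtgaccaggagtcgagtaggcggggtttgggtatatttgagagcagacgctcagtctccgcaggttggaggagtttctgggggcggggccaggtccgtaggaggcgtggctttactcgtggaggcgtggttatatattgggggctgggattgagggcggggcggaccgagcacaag
Myo7a, chr7:98109249-98109498, minus strand: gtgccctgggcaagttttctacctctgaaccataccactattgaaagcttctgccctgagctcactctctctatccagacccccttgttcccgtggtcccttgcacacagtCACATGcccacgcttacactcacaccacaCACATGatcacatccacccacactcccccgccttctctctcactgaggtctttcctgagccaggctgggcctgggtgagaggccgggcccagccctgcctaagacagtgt
The 2 matches of *Myo7a* begin 139 and 110 bases before this start site, which is the inner one of its 2 start sites. The window of *Myo5a* is rich in G and C (74%, beside a median of 52.4% over all windows) while the printed *Myo10* window holds 62.8% and the *Myo1f* window 53.6%. A match or its absence describes these letters in this window and says nothing of binding. With only 11 windows, the count of 1 cannot be set apart from the share over all windows. The study names *Myo5a* as a described target gene of MITF, and that link was not tested here.

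Pigment cells are the classical setting of *Myo5a*, and the CD45+CD11b+ sort was set to leave them out. It was not complete, since 229 stromal-like and 36 endothelial-like cells were among the kept cells. The 5 melanocyte markers summed to 0.40 and 0.63 CPM in the compartment (26 and 38 UMIs, *Tyrp1* at 0 in both libraries). Of all clusters, stromal-like cluster 13 had the highest melanocyte sum, at 3.62 CPM after β-glucan and 3.31 after PBS. Skeletal muscle markers, which could accompany muscle myosins, summed to 16.2 and 9.51 CPM in the compartment and smooth muscle markers to 2.77 and 2.09 CPM. The skeletal muscle signal lay mostly in macrophage-like cluster 1, at 75.1 CPM after β-glucan and 32.4 after PBS. No other compartment cluster was above 9.72 CPM in either library. Markers of antigen-presenting cells summed to 7280 CPM after β-glucan and 10990 after PBS, 2 of 10 being higher after β-glucan, and neutrophil markers to 37.7 and 135 CPM, 1 of 7 being higher. Macrophage markers summed to 10185 and 9653 CPM, with 7 of 9 higher after β-glucan. The log2 ratio of *Myo5a* was 0.39 without cluster 7, 0.35 in macrophage-like clusters alone and 0.32 with equal weight per cluster. The part of these marker differences in the myosin values was not tested.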

How the data were processed

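Single-cell RNA libraries (10x 3' kit) of sorted synovial CD45+CD11b+ cells, 1 per group, were used. Per the labels and methods, the authors counted UMIs with Cell Ranger 7.0.0; the labels list GRCm39 and mm10, and the methods name GRCm39 with Ensembl 104. The deposited values are raw counts per gene and barcode. Counting of intron reads is not given in the sources used here.

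Barcodes under 500 genes or over 10% mitochondrial UMIs were dropped. Kept cells were clustered with Seurat 5.3.0 (sctransform 0.4.2, 3000 variable genes, 30 components, 20 neighbours, resolution 0.7) without the 10 myosins and 15 other genes. Clusters were named from marker lists, requiring 3 markers in at least 25% of cells; the rule that left cluster 9 unnamed was set after seeing the data. UMIs were summed per library and cell group, and log2 ratios carry exact conditional binomial 95% intervals. No p-value was computed, since each group is 1 library of 4 pooled mice. Scrublet (scanpy 1.11.5) marked 0 and 2 cells and had thus not worked, so doublets were kept, and 260 and 166 cells of highest score were left out as an alternative. Gene spans come from GENCODE M39 on GRCm39, matched by gene ID for 31870 of 32524 genes. Named besides the 10 myosins were the highest and lowest gene of each list, the MiT/TFE factors, the 5 genes most like *Myo5a* and the extreme pairs; *Myo1c*, *Rab27a*, *Mlph*, *Myrip* and the pair *Myo5a* and *Myo7a* were named after their values were seen. The members, lists and markers were chosen with earlier results of these data known. Ratios and likeness were tested on simulated data.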

Additional observations from a re-analysis of the deposited data

Results flagged for a closer look

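Among classes with at least 50 cells per library, 3 differences stood out because the interval of a class lay on the other side of 0 from that of macrophage-like cells. With 1 library per group, the differences between classes were not tested. *Myo1e* had a log2 ratio (β-glucan over PBS) of −0.58 in APC-like cells, against 0.32 in macrophage-like cells. It had −0.21 in proliferating-like cells, of which there were 52 and 72. These proliferating-like cells had markers of antigen-presenting cells at 18015 CPM after β-glucan and 24796 after PBS. *Myh9* had 0.16 in T cell-like cells, against −0.08 in macrophage-like cells. For *Myo1e*, cluster 7 without the PBS library's cells led by *Arg1*, named macrophage-like at resolution 1, gave −0.29. Unnamed cluster 3, led by *H2-Aa* and *Cd74*, had *Myo1e* at 300 CPM after β-glucan and 241 after PBS. For *Myh9* the lower bound in T cell-like cells was 0.01. Endothelial-like cells, under that limit with 23 and 13 cells, gave *Myh9* 0.62 (0.24 to 1.02).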

How the results depend on the processing

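Each myosin was computed under 19 other settings, of which leaving out cluster 7, cluster 9 or the 80 cells of the PBS library were chosen after seeing the data. *Myo5a* stayed above 0 in all 19, and *Myo1f*, *Myo9a* and *Myo9b* did too, while *Myh9* stayed below 0 in all. The log2 ratio of *Myo5a* was 0.35 in macrophage-like clusters alone, 0.12 in APC-like clusters alone, 0.32 with equal weight per cluster, 0.42 with TMM scaling, 0.39 without cluster 7 and 0.21 after matching for long-gene content. The 10 myosins had a median of 0.057 in APC-like clusters and 0.067 after matching, where 1 in place of 3 reached 0.25. *Myo10* turned to −0.35 in APC-like clusters. *Myo1e* was above 0 in 18 of 19 settings, *Myo7a* in 15, *Myo1d* in 6 and *Myo6* in 6 of 18. Thinning to 8000 UMIs gave 96.0% and 93.2% of cells with a *Myo5a* UMI, and no thinning gave 96.9% and 95.4%. Equal weight per cluster gave *Myo6* no value.

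Counting error is small for *Myo5a* but wide for *Myo6* and *Myo1d*. Differences between mice, batches and treatments cannot be told apart here, because each group is 1 library. No paired analysis was possible because each group has 1 sample and no test was run.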
